A study of Mus musculus with 16 samples.

Results

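Complement components and receptors were followed in mouse gastrocnemius muscle with and without dystrophin and with and without overexpression of Galgt2. The 8 genes named were the chains of the recognition molecule C1q (C1qa, C1qb and C1qc), the central component C3, the protease factor B (Cfb), the anaphylatoxin receptors C3ar1 and C5ar1, and the inhibitor Serping1. They were taken by symbol. A gene was matched through probe sets carrying its symbol alone, and the brightest probe set over the muscle arrays stood for it. This gave 7 of the 8 genes, on 12 probe sets, out of 18194 genes in all, and C3 was not analysed here.

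Complement is a cascade of proteases and binding proteins found in blood and made locally by macrophages and other cells. C1q binds antibody complexes and dying cells and starts the classical pathway, factor B builds the C3 convertase of the alternative pathway, and the released fragments C3a and C5a act on myeloid cells through their receptors. Serping1 encodes the C1 inhibitor, which blocks the proteases C1r and C1s that C1q activates. In tissues the C1q chains and both receptors are made mainly by macrophages and other myeloid cells, which infiltrate dystrophic muscle.

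All muscles came from male mice aged 2 months. The first array set held Galgt2 transgenic mdx muscle (dystrophin-deficient, C57BL/10J x C57BL/6J), Galgt2 transgenic muscle (C57BL/6J), mdx muscle (dystrophin-deficient, C57BL/10J) and wild-type (WT) muscle (C57BL/6J). The second set held C57BL/10J mdx muscle treated with an adeno-associated virus (AAV) carrying Galgt2 and mock-treated contralateral mdx muscle given phosphate-buffered saline (PBS). Each of these 6 groups had 2 arrays. Strain background differs in every comparison of the first set except transgenic against WT, so strain cannot be told apart there from lack of dystrophin or, in transgenic mdx against mdx, from the transgene. The promoter driving the transgene is not given in the sources used here, nor is which AAV and PBS array shared a mouse. The labels do not say whether replicates were separate mice, so the p-values cover no more than the scatter of these samples. C2C12 arrays, 1 for each state of a mouse myoblast line, entered no test. Values are log2 of the deposited intensity per probe set, and levels are set side by side only within an array set.

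The C1q genes lie next to one another on mouse chromosome 4 (GRCm38.p6), with C1qb at chr4:136880126-136886200, C1qc at chr4:136889801-136892936 and C1qa at chr4:136895916-136898844. Cfb lies at chr17:34856374-34862514, C3ar1 at chr6:122847140-122856157, C5ar1 at chr7:16246743-16259540 and Serping1 at chr2:84765360-84775444. RefSeq promoters (GRCm38.p6) were matched for 4 of the 7 measured genes, namely C1qb, C1qc, C3ar1 and C5ar1. The 250 bases before the transcript starts that the promoter table gives for the neighbouring C1qb and C1qc genes are printed here 5′ to 3′ on the gene's strand, because the C1q chains assemble into 1 molecule. Capitals mark GAGGAA, a core bound by the myeloid factor PU.1, or its reverse complement.
C1qb, chr4:136886201-136886450, minus strand: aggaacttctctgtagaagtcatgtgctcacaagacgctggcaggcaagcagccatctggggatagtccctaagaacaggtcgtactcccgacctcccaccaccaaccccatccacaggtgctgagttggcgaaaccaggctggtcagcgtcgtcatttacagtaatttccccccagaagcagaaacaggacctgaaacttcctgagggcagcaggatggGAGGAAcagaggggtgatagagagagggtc
C1qc, chr4:136892915-136893164, minus strand: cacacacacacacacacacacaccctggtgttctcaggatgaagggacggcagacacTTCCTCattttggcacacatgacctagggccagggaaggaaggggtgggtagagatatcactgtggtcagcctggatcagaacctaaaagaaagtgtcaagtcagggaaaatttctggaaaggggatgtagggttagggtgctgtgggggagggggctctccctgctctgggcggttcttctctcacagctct
The C1qc start in that table lies 22 bases inside the gene span given above, so its window overlaps that span by as much. The match lay 30 bases before the C1qb start and, on the opposite strand, 193 bases before the C1qc start. GAGGAA was found on either strand in 6252 of 27025 promoters of this length (23.1%), and had no match in the windows of C3ar1 and C5ar1. The interferon-stimulated response element (GAAA and GAAA parted by any 2 bases, in 3.04% of promoters), the gamma-activated site (TTCNNNGAA, 7.18%) and the ETS-IRF composite (GGAA and GAAA parted by any 2 bases, 2.38%), searched on both strands, had no match in any of the 4 windows. These letters may overlap one another, and a match is only a description of the sequence.

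B4galnt2, the current symbol of Galgt2, was at log2 13.17 to 13.34 on the 4 transgenic arrays, against 3.86 and 7.78 in mdx and 4.61 and 4.94 in WT muscle. It was at 10.54 and 10.56 in AAV and 5.27 and 4.26 in PBS muscle. Dmd, which encodes dystrophin, was at 8.52 and 8.13 in mdx muscle, against 11.14 and 11.16 in WT muscle, and was at 9.86 and 9.87 in transgenic mdx and 11.16 and 10.98 in transgenic muscle. It was 7.08-fold lower in mdx than in WT (adjusted p = 0.00048), while transgenic mdx muscle was 2.90-fold higher than mdx (adjusted p = 0.0030) and 2.30-fold lower than transgenic muscle, which did not pass (adjusted p = 0.130). Array medians were log2 5.85 to 6.00 in the first set and 4.66 to 4.68 in the second, and replicate arrays correlated at r of 0.977 to 0.993 over all genes. Muscle fibre markers (7 of 7 measured) averaged log2 13.23 to 13.41 per array in the first set, while hepatocyte markers (6 of 7 measured) averaged 4.70 to 5.05, below the array medians. The 8 macrophage markers ranged from 5.50 to 13.14 over the first set. The lowest values, those of Fcgr1 in WT muscle (5.54 and 5.50), lay below the array medians. All 7 complement genes passed a filter asking for a level above the array median on at least 2 muscle arrays.

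The comparison of mdx with WT muscle asked how loss of dystrophin changed these genes. A total of 5 of the 7 were higher in mdx muscle: C1qa, C1qc, C3ar1, C5ar1 and Cfb. Over all genes, 3.75% were called higher (limma, Benjamini-Hochberg adjusted p at the threshold of 0.05). The median difference of the 7 genes was 1.89 (log2), against 0.01 over all genes. All 7 genes were higher in both mdx arrays than in both WT arrays, a pattern that 23.7% of all genes showed.

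C1qa, which encodes the A chain of C1q, had log2 levels of 9.36 and 8.96 in mdx and 6.66 and 6.91 in WT muscle. C1qc, the C chain, had 10.73 and 10.12 in mdx and 8.03 and 8.30 in WT muscle. Every mdx array was thus above every WT array for both chains. C1qa was 5.18-fold higher (log2 difference 2.37 ± 0.32, SE, adjusted p = 0.0045) and C1qc 4.79-fold higher (2.26 ± 0.30, adjusted p = 0.0045).

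C1qb, the B chain, was read by 3 probe sets that disagreed. The brightest, of the x_at class, gave 12.36 and 12.97 in mdx and 11.89 and 10.64 in WT muscle, with the WT replicates 1.25 apart. Its difference of 1.40 ± 0.47 did not pass (adjusted p = 0.114, with a 95% interval of 0.37 to 2.44 before adjustment). The dimmest, of the plain _at class, gave 10.72 and 10.88 in mdx and 8.17 and 7.90 in WT muscle. In a fit over all 34958 probe sets, the dimmest was higher in mdx muscle by 2.76 ± 0.30 (adjusted p = 0.0043), while the middle one, also x_at, was at 1.40 with adjusted p = 0.120. With the mean of all its probe sets C1qb also passed over all genes (1.86, adjusted p = 0.016). IDs ending in x_at mark probe sets in which some probes can also match other transcripts. After centring within each array set, the 2 x_at profiles differed from each other by a root mean square of 0.04 over the 12 muscle arrays and the brightest differed from the dimmest by 0.53. C1qa lay 0.24 from C1qc, 0.32 from the dimmest C1qb probe set and 0.65 from the brightest.

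**Figure D1:**
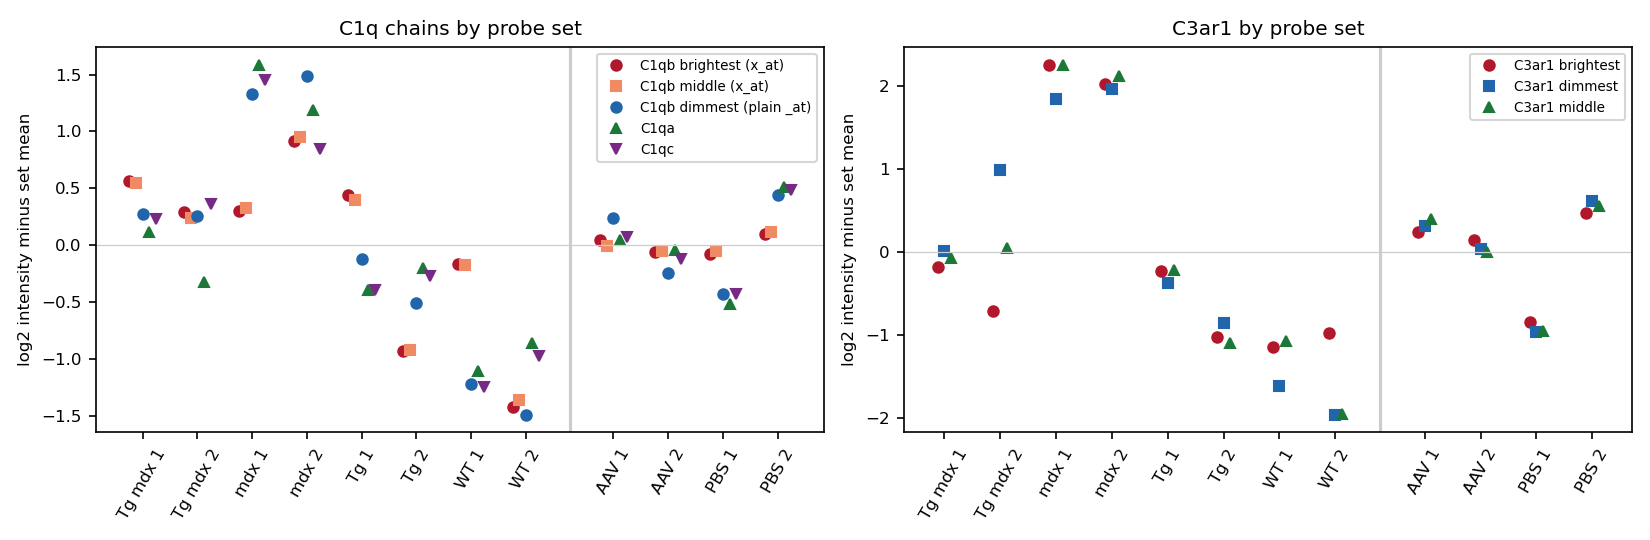
Centred log2 intensity of the C1q chains (left) and of C3ar1 (right) by probe set on each muscle array, as a difference from the probe set's mean in its array set. Points are single arrays, and the vertical line parts the array sets. Both x_at probe sets of C1qb move together and apart from C1qa, C1qc and the dimmest C1qb probe set.

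C3ar1, the receptor for C3a, had 11.09 and 10.85 in mdx and 7.69 and 7.86 in WT muscle. This was the largest difference among the 7 genes, 9.16-fold (3.20 ± 0.40, adjusted p = 0.0034). C5ar1, the receptor for C5a, had 11.72 and 11.46 in mdx and 10.05 and 10.22 in WT muscle. It was 2.74-fold higher (1.46 ± 0.34, adjusted p = 0.035). A second C5ar1 probe set lay at 5.28 and 4.59 in mdx and 4.29 and 4.41 in WT muscle, below the array medians, and did not pass (0.58 ± 0.29, adjusted p = 0.326).

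Cfb had 9.20 and 8.05 in mdx and 6.80 and 6.67 in WT muscle, so the mdx replicates were 1.16 apart and both above WT. It was 3.71-fold higher (1.89 ± 0.39, adjusted p = 0.023). Serping1 had 12.05 and 12.10 in mdx and 11.38 and 11.25 in WT muscle, and its difference of 0.76 ± 0.22 did not pass (adjusted p = 0.071). C1qa, C1qc and C3ar1 were called with any 1 of the 12 muscle arrays left out. C5ar1 and Cfb were not called without either WT array or without mdx replicate 1. Most calls over all genes were lost without either WT array, but not without mdx replicate 1. C5ar1 was also not called without mdx replicate 2 or without either AAV array.

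**Figure D2:**
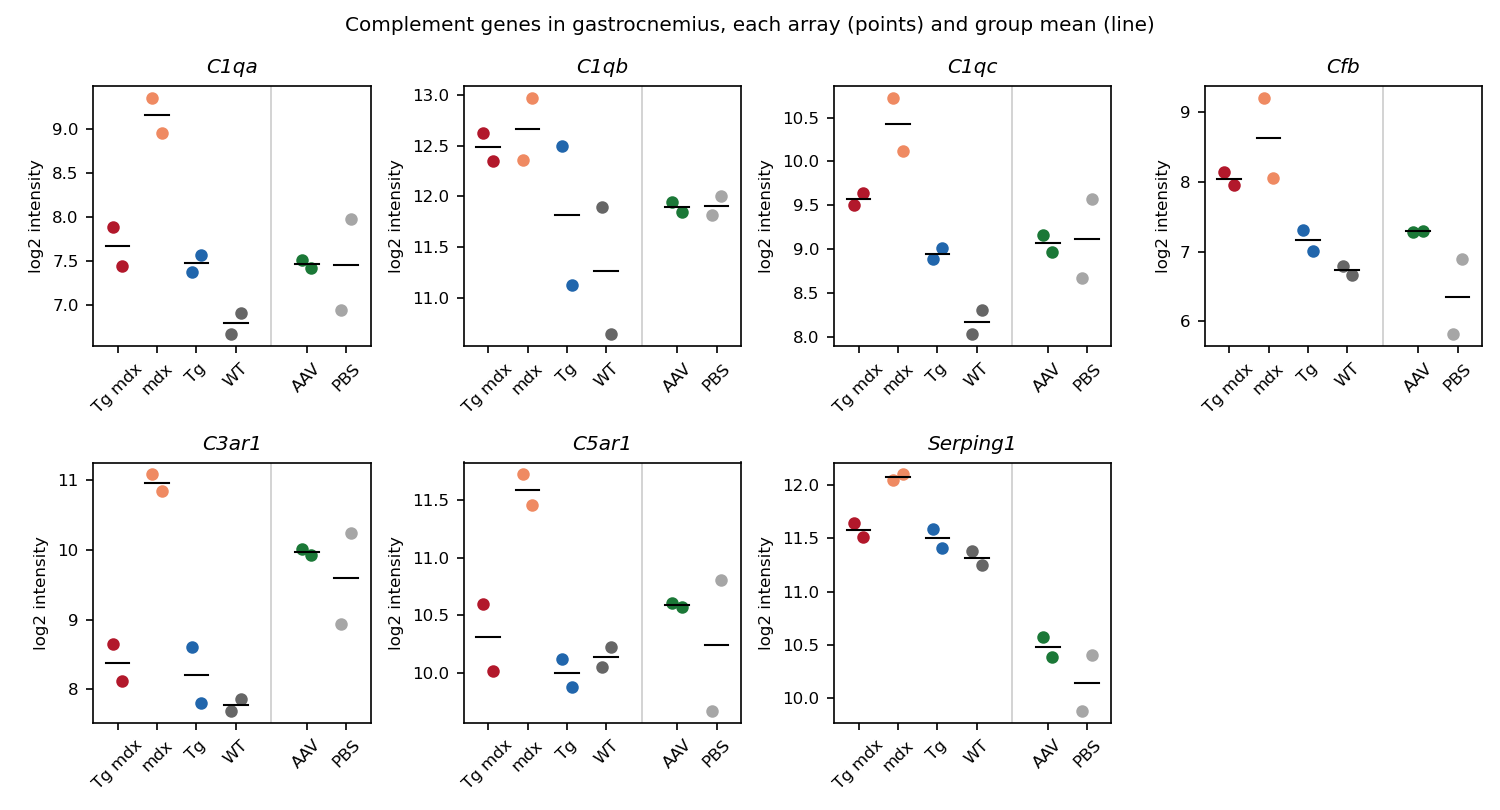
Log2 intensity of the 7 measured complement genes on each muscle array, grouped by genotype or treatment and with the array sets side by side. Points are arrays and short lines the group means. All 7 genes have both mdx arrays above both WT arrays, and the PBS replicates lie further apart than the AAV replicates.

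Macrophage markers mostly moved with these genes, with 7 of 8 differences positive and 1 negative. Their summed intensity was 21840 and 18456 in mdx and 6765 and 6877 in WT muscle, with 5 of 8 called higher and a median difference of 2.31. Cd68 was at log2 11.55 and 10.96 in mdx and 6.87 and 7.21 in WT muscle. Adgre1 was at 9.82 and 9.77 in mdx and 7.01 and 7.23 in WT muscle. Mrc1 rose less, with 11.36 and 10.80 in mdx and 10.59 and 10.56 in WT muscle. Cd163 went the other way, with 9.99 and 10.01 in mdx and 10.01 and 10.55 in WT muscle. Interferon-induced genes, with 6 of 8 measured, summed to 1586 and 1495 in mdx and 578 and 640 in WT muscle, and 3 were called higher. The part of these cells and genes in the complement differences was not tested. In whole muscle, more cells of a type and more RNA per cell cannot be told apart.

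The comparison of Galgt2 transgenic mdx with mdx muscle asked what the transgene changed where dystrophin was lacking. C3ar1 and C1qa fell in transgenic mdx muscle, which makes 2 of the 7 genes, against 2.11% of all genes called lower. All 7 differences were negative, with a median of -0.86 against -0.01 over all genes. In 5 of the 7 both transgenic mdx arrays lay below both mdx arrays, as in 22.3% of all genes.

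C3ar1 had 8.65 and 8.12 in transgenic mdx and 11.09 and 10.85 in mdx muscle, and was 6.00-fold lower (-2.58 ± 0.40, adjusted p = 0.0067). Its other probe sets gave -2.19 ± 0.47 (the middle one in brightness, adjusted p = 0.031) and -1.40 ± 0.47 (the dimmest, adjusted p = 0.118) in the fit over probe sets. C1qa had 7.89 and 7.44 in transgenic mdx and 9.36 and 8.96 in mdx muscle, and was 2.82-fold lower (-1.50 ± 0.32, adjusted p = 0.025). For both genes the groups did not overlap. Without transgenic mdx replicate 2 neither gene was called (C3ar1 -2.32, adjusted p = 0.055), and C1qa was not called without either mdx array.

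C5ar1 had 10.60 and 10.02 in transgenic mdx and 11.72 and 11.46 in mdx muscle, close to the threshold at -1.28 ± 0.34 (adjusted p = 0.052). C1qc had 9.50 and 9.64 in transgenic mdx and 10.73 and 10.12 in mdx muscle (-0.86 ± 0.30, adjusted p = 0.132). The groups did not overlap for either gene, and neither passed. C1qb was at 12.62 and 12.35 in transgenic mdx and 12.36 and 12.97 in mdx muscle by its brightest probe set (-0.18, adjusted p = 0.899). By its dimmest probe set it was at 9.66 and 9.65 in transgenic mdx and 10.72 and 10.88 in mdx muscle. With that probe set standing for the gene, a setting chosen after the data were seen, C1qb passed at -1.14 (adjusted p = 0.049 over all genes). Cfb overlapped, with 8.14 and 7.95 in transgenic mdx and 9.20 and 8.05 in mdx muscle (-0.58, adjusted p = 0.464). Serping1 had 11.65 and 11.51 in transgenic mdx and 12.05 and 12.10 in mdx muscle (-0.50, adjusted p = 0.218).

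The macrophage markers summed to 10786 and 10945 in transgenic mdx and 21840 and 18456 in mdx muscle, with 2 of 8 called lower and a median of -1.04. The interferon-induced genes went the other way, with sums of 9160 and 4634 in transgenic mdx and 1586 and 1495 in mdx muscle and 3 of 6 called higher. Endothelial markers had 1 of 5 called lower, with a median of -1.02. Lymphocyte markers (6 of 7 measured) summed to 275 and 816 in transgenic mdx and 645 and 253 in mdx muscle, with 0 called, so transgenic mdx replicate 2 and mdx replicate 1 stood apart from their own replicates. The part of all these markers in the complement differences was not tested.

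**Figure D3:**
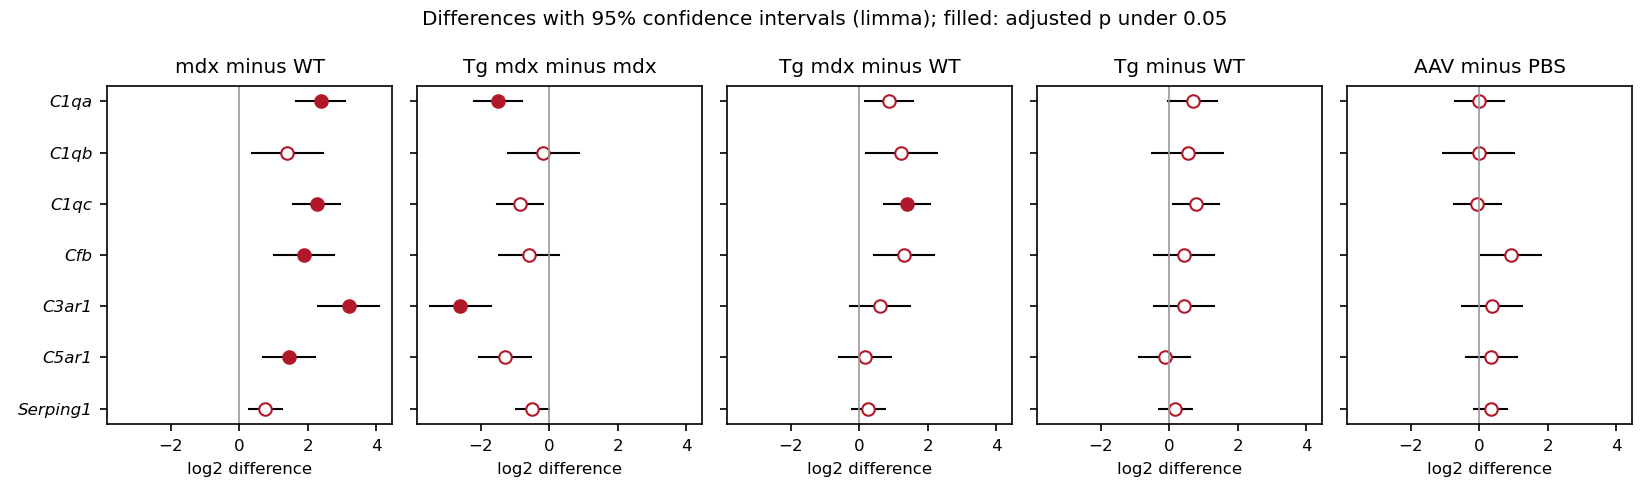
Log2 difference of each measured complement gene in each comparison, with 95% intervals before adjustment. Filled points passed the adjusted p threshold of 0.05. C3ar1 has the largest difference in both mdx against WT (3.20) and transgenic mdx against mdx (-2.58).

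Transgenic mdx muscle was also set against WT muscle, using the same transgenic mdx and WT arrays as above, to ask what remained of the mdx difference. C1qc was the only one of the 7 genes called, at 9.50 and 9.64 in transgenic mdx and 8.03 and 8.30 in WT muscle. It was 2.65-fold higher (1.40 ± 0.30, adjusted p = 0.021), and 4.91% of all genes were called higher. That call was lost without either WT array or either transgenic mdx array. Cfb followed at 1.31 ± 0.39 (adjusted p = 0.075), and was called without either mdx array or without either PBS array. C1qb was at 1.22 ± 0.47 (adjusted p = 0.156) by its brightest probe set, and its dimmest probe set was higher by 1.62 ± 0.30 (adjusted p = 0.012 over probe sets).

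C3ar1 differed from WT by 0.61 ± 0.40 (adjusted p = 0.434) with levels of 8.65 and 8.12 in transgenic mdx and 7.69 and 7.86 in WT muscle. Its probe sets disagreed here. The dimmest was higher by 2.28 ± 0.47 (adjusted p = 0.019), with 7.45 and 8.42 in transgenic mdx and 5.82 and 5.48 in WT muscle, and the middle one was at 1.50 ± 0.47 (adjusted p = 0.098). C1qa was at 0.88 ± 0.32 (adjusted p = 0.135), Serping1 at 0.26 ± 0.22 (adjusted p = 0.551) and C5ar1 at 0.17 ± 0.34 (adjusted p = 0.839). The interval of C5ar1 before adjustment was -0.58 to 0.92, so a rise as large as the 1.46 of mdx muscle lay outside it. In 6 of the 7 genes both transgenic mdx arrays were above both WT arrays, as in 27.8% of all genes. Macrophage markers had 3 of 8 called higher than in WT, with a median of 1.26, and all 6 measured interferon-induced genes were called higher.

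The comparison of Galgt2 transgenic with WT muscle asked what the transgene did in muscle with dystrophin. Of the 7 genes, 0 were called by limma, against 3.15% of all genes in either direction, and 1 of the 7 had an unadjusted p under 0.05, against 2585 of all genes. The median difference was 0.43, against -0.05 over all genes. C1qc had 8.88 and 9.01 in transgenic and 8.03 and 8.30 in WT muscle (0.78 ± 0.30, adjusted p = 0.261). C1qa had 7.37 and 7.57 in transgenic and 6.66 and 6.91 in WT muscle (0.68 ± 0.32, adjusted p = 0.371). C1qa, C1qc, Cfb and Serping1 had both transgenic arrays above both WT arrays, a pattern of 20.5% of all genes.

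C3ar1 was at 8.61 and 7.81 in transgenic and 7.69 and 7.86 in WT muscle by its brightest probe set, overlapping. Its dimmest probe set did not overlap, with 7.06 and 6.58 in transgenic and 5.82 and 5.48 in WT muscle (1.17 ± 0.47, adjusted p = 0.309 over probe sets). C1qb was at 12.50 and 11.13 in transgenic and 11.89 and 10.64 in WT muscle, with replicate 2 the lower in both. By its dimmest probe set C1qb did not overlap, with 9.26 and 8.88 in transgenic and 8.17 and 7.90 in WT muscle (1.04 ± 0.30, adjusted p = 0.127). None of these passed. C5ar1 was at 10.12 and 9.88 in transgenic and 10.05 and 10.22 in WT muscle (-0.14, with an interval of -0.88 to 0.61). Transgenic replicate 1 stood apart in neutrophil markers, which summed to 11281 on it and 1123 on replicate 2, against 259 and 423 in WT muscle. As 0 of the 7 complement genes were called with that array in the fit, leaving it out could not show a loss of calls. The part of neutrophils in these differences was not tested.

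Within transgenic muscle, the comparison of transgenic mdx with transgenic muscle set mdx against non-mdx muscle where Galgt2 was overexpressed. The Dmd difference in it, given above, was smaller than in mdx against WT and did not pass. Of the 7 genes, 0 were called by limma, with 0.055% of all genes called in either direction, and 1 of the 7 (Cfb) and 708 of all genes had an unadjusted p under 0.05. Differences ran from 0.08 for Serping1 to 0.88 for Cfb. Cfb had 8.14 and 7.95 in transgenic mdx and 7.31 and 7.01 in transgenic muscle, and it and C1qc were the 2 genes whose groups did not overlap, as in 20.4% of all genes. C3ar1 was at 0.18 ± 0.40, with an interval of -0.71 to 1.06, by its brightest probe set, against 3.20 for mdx over WT. Its middle and dimmest probe sets gave 0.65 ± 0.47 and 1.11 ± 0.47, neither of which passed (adjusted p = 1 for both). The dimmest had 7.45 and 8.42 in transgenic mdx and 7.06 and 6.58 in transgenic muscle, with no overlap.

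Whether the mdx effect differed with the transgene was tested by the interaction, the transgenic mdx minus mdx difference less the transgenic minus WT difference. All 7 values were negative, from -3.02 for C3ar1 to -0.68 for Serping1. By limma 0 of the 7 were called, with 0.044% of all genes called. An unadjusted p under 0.05 was met by 5 of the 7 and by 2168 of all 18194 genes. C3ar1 was at -3.02 ± 0.56 (adjusted p = 0.101), C1qa at -2.18 ± 0.45 (adjusted p = 0.114) and C1qc at -1.63 ± 0.43 (adjusted p = 0.178). C1qb was at -0.73 ± 0.66 by its brightest probe set and -2.18 ± 0.42 by its dimmest (adjusted p = 0.131 over probe sets). Leaving out either PBS array changes only the shared estimate of spread, not these differences. C3ar1 and C1qa were then called, but calls rose over all genes too, so this is no result about those genes alone. The macrophage markers had a median interaction of -1.99, with 0 of 8 called.

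Across the first set, C1qa, C1qc and C3ar1 were highest in mdx, then transgenic mdx, then transgenic, then WT muscle. Of the neighbours in that order, mdx and transgenic mdx were called apart for C1qa and C3ar1, and no other neighbours were. Cfb and Serping1 followed the same order of means, at 8.63, 8.04, 7.16 and 6.73 for Cfb and 12.07, 11.58, 11.50 and 11.32 for Serping1. C1qb had the same order by its brightest probe set, 12.66, 12.49, 11.81 and 11.26, and no neighbours were called apart for these 3 genes. C5ar1 differed from this only at the low end, with 10.14 in WT and 10.00 in transgenic muscle.

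AAV delivery of Galgt2 was compared with PBS in mdx muscle of the second set. B4galnt2, the delivered gene, was higher by 5.78 ± 0.91 and still was not called (limma, adjusted p = 0.233). A missing call therefore says little in this comparison. Of the 7 genes, 0 were called by limma, as were 0% of all genes, while 1 of the 7 and 1506 of all genes had an unadjusted p under 0.05. That gene was Cfb, at 7.28 and 7.30 in AAV and 5.81 and 6.89 in PBS muscle. It was 1.91-fold higher (0.94 ± 0.39, adjusted p = 0.565, interval 0.06 to 1.81) and was the only one of the 7 whose groups did not overlap, as 25.3% of all genes did in that direction. C3ar1 was at 10.02 and 9.93 in AAV and 8.95 and 10.25 in PBS muscle (0.38 ± 0.40). C1qa was at 7.51 and 7.42 in AAV and 6.94 and 7.97 in PBS muscle (0.01 ± 0.32, interval -0.70 to 0.71). C1qc was at 9.17 and 8.97 in AAV and 8.67 and 9.58 in PBS muscle (-0.05 ± 0.30).

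In all 7 genes PBS replicate 2 was above PBS replicate 1, by 0.18 for C1qb to 1.30 for C3ar1, while the AAV replicates were 0.02 to 0.20 apart. In 5 of the 7 both AAV arrays lay between the PBS arrays. How many of all genes showed these patterns was not counted, so they are no result about these genes alone. Over all genes, the difference between replicates had a standard deviation of 0.49 in PBS and 0.33 in AAV muscle. C5ar1 was at 10.61 and 10.58 in AAV and 9.67 and 10.81 in PBS muscle, and Serping1 at 10.57 and 10.38 in AAV and 9.88 and 10.40 in PBS muscle. The macrophage sums were 9700 and 8171 in AAV and 8126 and 11888 in PBS muscle, and the neutrophil sums 584 and 247 in AAV and 265 and 2588 in PBS muscle. PBS replicate 2 was thus the highest of the 4 arrays in both marker sums. Its neutrophil sum came from S100a8 (6.98 and 10.63 on PBS replicates 1 and 2) and S100a9 (6.19 and 9.91). The other measured neutrophil markers, Mpo, Elane, Ngp, Camp and Ltf, were lower on PBS replicate 2 than on replicate 1. They lay below the array medians on both PBS arrays, so their order says little. The part of macrophages and neutrophils in the spread was not tested. The interval of C3ar1, -0.51 to 1.26, did not hold a fall of the size seen in transgenic mdx muscle. That interval uses the spread shared by all 6 groups and no pairing. With its PBS arrays 1.30 apart, it may be too narrow here.

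A further comparison, added after the data were seen, tested the difference between these differences directly: transgenic mdx minus mdx, less AAV minus PBS. C3ar1 passed at -2.96 ± 0.56 (adjusted p = 0.034), 1 of the 7 genes against 0.896% of all genes called lower. In the fit over probe sets its brightest probe set passed (adjusted p = 0.042), while the middle one at -2.58 ± 0.67 (adjusted p = 0.083) and the dimmest at -1.75 ± 0.66 (adjusted p = 0.191) did not. The other values ran from -1.64 for C5ar1 (adjusted p = 0.094) and -1.50 for C1qa (adjusted p = 0.100) to -0.16 for C1qb, whose dimmest probe set gave -1.13 ± 0.42 (adjusted p = 0.189). The C3ar1 call was lost in 8 of the 12 fits that left out 1 array, with values from -3.61 to -2.31. It was also lost with the replicate number as a block (adjusted p = 0.052). The arrays of the 2 sets also differ in how the gene was delivered and in array set. Strain background differs between transgenic mdx and mdx muscle but not between AAV and PBS muscle. Delivery, array set and strain cannot be told apart in this difference.

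Other complement genes were described from a list of 47, of which 37 were measured. In mdx against WT muscle 3 were higher and 0 lower, where 3.75% of all genes were higher, and the median was 0.26 against 0.01 over all genes. Itgax and Itgb2 encode integrin chains that pair as complement receptor 4 (Itgb2 also pairs with Itgam), and Cfp encodes properdin, which stabilises the alternative pathway convertase. Itgax had 9.91 and 8.45 in mdx and 4.69 and 4.48 in WT muscle (4.60 ± 0.87, adjusted p = 0.016). Itgb2 had 9.76 and 8.89 in mdx and 5.66 and 5.73 in WT muscle (3.63 ± 0.61, adjusted p = 0.010). Cfp had 9.32 and 9.30 in mdx and 7.07 and 7.38 in WT muscle (2.08 ± 0.37, adjusted p = 0.013). All 3 are known from myeloid cells. The calls of these 3 genes were lost without either WT array, as were most calls over all genes. Of the 12 fits that left out 1 array, Itgb2 kept its call in 10, and Itgax and Cfp in 9 each. By role, 0 of 3 classical, 0 of 9 lectin and 0 of 6 terminal pathway genes were called in mdx against WT muscle. The regulators had 0 of 10 called. All 3 classical differences were positive, with a median of 0.95 and C1ra close to the threshold (0.98 ± 0.25, adjusted p = 0.052). Among the lectin and terminal genes, Mbl1, Mbl2, Fcnb, Colec10, Colec11, Masp2, Hc, C8a, C8b and C9 lay below the array median on every muscle array. So did the regulators Cfi, Cd55b, C4bp, Cpn1 and Cpn2. A missing call therefore says little about them.

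Transgenic mdx against mdx muscle had 2 of the 37 higher and 3 lower, with a median of -0.10, where 3.97% of all genes were higher and 2.11% lower. Vsig4, a complement receptor of resident macrophages that binds C3b, had 6.25 and 6.76 in transgenic mdx and 4.02 and 4.54 in mdx muscle (2.22 ± 0.26, adjusted p = 0.0014). Hc, which encodes C5, averaged 4.99 in transgenic mdx and 3.40 in mdx muscle (1.59 ± 0.29, adjusted p = 0.012). Hc lay below the array median on every array, and Vsig4 did so outside transgenic mdx muscle. Vtn and Clu encode vitronectin and clusterin, which bind and hold back the terminal complex. Vtn had 7.63 and 7.72 in transgenic mdx and 9.50 and 9.55 in mdx muscle (-1.85 ± 0.23, adjusted p = 0.0022). Clu had 9.87 and 10.78 in transgenic mdx and 12.07 and 12.76 in mdx muscle (-2.09 ± 0.48, adjusted p = 0.031). Cd93, an endothelial and myeloid surface protein first described as a C1q receptor, was lower by 1.04 ± 0.22 (adjusted p = 0.026). The Clu call was lost with the replicate number as a block (adjusted p = 0.073) and the Cd93 call in a fit within the array set (adjusted p = 0.054). Fewer of the 37 were called without mdx replicate 2 or either transgenic mdx array, and more without either PBS array. Calls over all genes moved the same way in each of these fits.

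**Figure D4:**
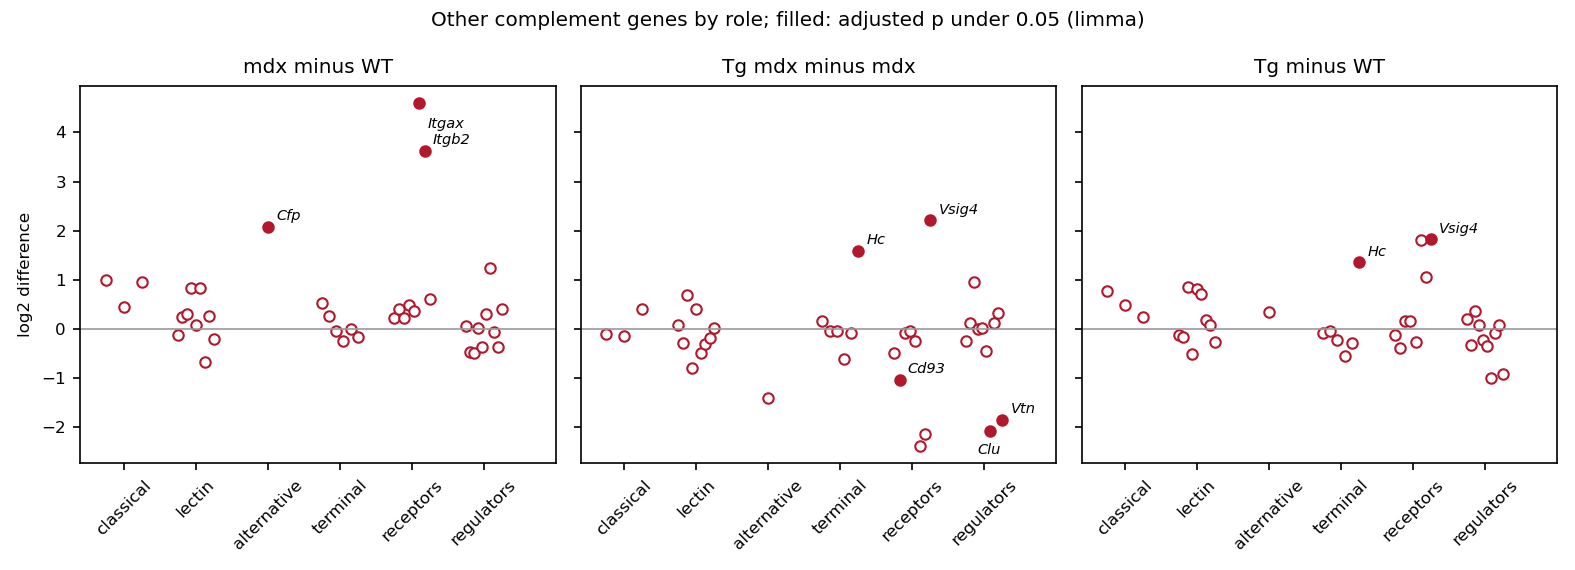
Log2 difference of each of the 37 measured other complement genes in 3 comparisons, arranged by role. Filled, named points passed the adjusted p threshold of 0.05. Vsig4 and Hc are higher in transgenic mdx against mdx and in transgenic against WT, while Itgax, Itgb2 and Cfp are higher in mdx against WT.

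Vsig4 and Hc were also the 2 of 37 called in transgenic against WT muscle, where 2.12% of all genes were higher. Vsig4 had 5.53 and 5.47 in transgenic and 3.53 and 3.83 in WT muscle (1.82 ± 0.26, adjusted p = 0.0041). Hc had 5.44 and 4.42 in transgenic and 3.59 and 3.56 in WT muscle (1.36 ± 0.29, adjusted p = 0.030), a call lost with the block (adjusted p = 0.076), for log2 of the value + 16 (0.080) and in a fit within the set (0.096). Both calls were lost without WT replicate 1, and that of Hc also without WT replicate 2, transgenic replicate 1 or either AAV array. Calls over all genes fell in each of these fits too. Both genes were higher in transgenic mdx than in WT muscle too (Vsig4 2.82, adjusted p = 0.00023, and Hc 1.42, adjusted p = 0.015, or 0.051 in a fit within the set), where Vtn was lower (-1.45, adjusted p = 0.0047). Of all genes, 4.91% were higher and 2.36% lower there. Without WT replicate 2 only the Vsig4 call was kept, and most calls over all genes were lost. More of the 37 were called without any 1 of the mdx or PBS arrays, as were more of all genes.

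In the AAV comparison 0 of the 37 were called by limma, as were 0% of all genes, and the smallest p belonged to Vtn (0.74 ± 0.23, adjusted p = 0.461) and C8g, a chain of the terminal component C8 (-0.58 ± 0.30, adjusted p = 0.652). Vsig4 was at 3.48 and 3.08 in AAV and 3.65 and 3.59 in PBS muscle. Transgenic mdx against transgenic muscle also had 0 called, with Vsig4 at 1.00 (adjusted p = 0.863) and the lectin pathway protease Masp2 at -1.17 (adjusted p = 1). Masp2 lay below the array median on every muscle array. In the interaction 0 were called, with Itgb2 at -3.19 (adjusted p = 0.189) and Itgax at -4.20 (adjusted p = 0.218). In the comparison added later, Vtn was lower (-2.59, adjusted p = 0.0060) and Vsig4 higher (2.56, adjusted p = 0.011), with 0.896% of all genes called lower and 1.19% higher.

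The genes whose profiles lay nearest to C1qb (brightest probe set) and Serping1 were found by root mean square difference over the 12 muscle arrays, after centring in each array set. For C1qb they were Prelid1 (0.14), Tor2a (0.19), Ccl9 (0.19), the classical pathway protease gene C2 (0.22) and Acer3 (0.23). All lay nearer than C1qc (0.59) or C1qa (0.65). The C2 probe set is also of the x_at class. Like C1qb, C2 was lower on replicate 2 in WT (7.75 and 6.91) and in transgenic muscle (8.22 and 6.92). Whether probes matching other transcripts play a part was not tested. For Serping1 they were Faf2 (0.10), Rbmx (0.10), Jpt1 (0.11), Ifitm2 (0.11) and Fads1 (0.12). Among the 7 genes the nearest pair was C1qa and C1qc (0.24) and the farthest C1qb and C3ar1 (0.87).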

How the data were processed

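Total RNA from 12 muscle samples (25 ng per amplification, per the labels' protocols) and 4 C2C12 samples was hybridised to 1-colour arrays in 3 sets. Each deposited value is a probe set's intensity, made with GCOS and RMA per the submitters' processing notes, with no versions given. They run from 3.90 to 24269 and were taken as linear. Of 45101 probe sets, 34958 carry 1 gene symbol in the supplied annotation, 932 several and 9211 none, and only the first kind was used. Arrays have no read depth, so their number limits the precision.

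A mean per group was fitted to the log2 values of the 12 muscle arrays (limma 3.58.1 under R 4.3.3). P-values were moderated by eBayes, two-sided and adjusted by Benjamini-Hochberg over 18194 genes. Intervals are 95% and not adjusted. Every planned comparison stays within 1 array set. The fit was tested on simulated data. Members and lists were chosen with earlier results of these data known. The rule for names took all members, B4galnt2 and Dmd as label checks, other complement genes called in a comparison (at most 6 by size, or the 2 of smallest p where none was), and the 5 nearest profiles of C1qb and Serping1.

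Same-numbered replicates deviated together with r from -0.439 to 0.542 over the pairs of groups, so the numbers were not taken to pair samples. Alternatives covered array scaling, a replicate block, log2 of the value + 16, a filter on low values, probe set choice, a fit within the array set, and leaving out each array.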

Additional observations from a re-analysis of the deposited data

Results flagged for a closer look

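C3ar1 was flagged because its difference between transgenic mdx and mdx muscle and its difference between AAV and PBS muscle were tested against each other and differed, at -2.96 (log2), in a comparison added after the data were seen. The first difference was -2.58 and the second 0.38. Of its 3 probe sets only the brightest passed this test, the others giving -2.58 (adjusted p = 0.083) and -1.75 (adjusted p = 0.191).

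In the C2C12 arrays, outside the muscle comparisons, Cfb had an intensity of 60.7 on the array labelled C2C12-Galgt2 myoblasts, against 27.5 on the array labelled C2C12 myoblasts, and 76.3 on that labelled C2C12-Galgt2 myotubes, against 37.7 on that labelled C2C12 myotubes. Serping1 had 544 on the array labelled transfected myoblasts and 280 on that labelled untransfected myoblasts, and 578 on that labelled transfected myotubes and 429 on that labelled untransfected myotubes. Dmd, which rises as myoblasts form myotubes, was at log2 4.14 and 8.73 on the arrays labelled transfected myoblasts and myotubes, but 9.13 and 5.20 on those labelled untransfected myoblasts and myotubes, so the untransfected pair went against its labels. With that pair exchanged, both genes remain higher on each transfected array. Each state has 1 array, so these differences have no replicate check. The array medians of that set were 57.2 to 60.4, so Cfb lay near the median.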

How the results depend on the processing

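With each of the 12 muscle arrays left out in turn, the number of the 7 complement genes called ran from 3 to 6 in mdx against WT, 0 to 3 in transgenic mdx against mdx, 0 to 2 in transgenic mdx against WT, 0 to 2 in the interaction and 0 to 3 in the comparison of the transgenic with the AAV difference, and stayed at 0 elsewhere. For the 37 other complement genes it ran from 0 to 3 in mdx against WT, 0 to 3 in transgenic against WT, 2 to 8 in transgenic mdx against mdx, 1 to 5 in transgenic mdx against WT, 0 to 1 in the interaction and 1 to 7 in the last comparison. Calls over all genes also moved with the array left out in every comparison. With the mean of all probe sets per gene, 3 complement genes were called in transgenic mdx against WT. Of the other complement genes it called 5 in mdx against WT, 7 in transgenic mdx against WT and 4 in the last comparison. Calls over all 18194 genes rose in these comparisons too, to 1108, 1447 and 496 from 990, 1324 and 380. With C1qb from its dimmest probe set, an alternative chosen after seeing the data, 2 complement genes were called in transgenic mdx against WT. With the replicate block, which is not a pairing here, 0 were called in the last comparison, and 1 other complement gene in transgenic against WT, as with the filter on low values and the fit within the array set. In mdx against WT, the block kept 5 complement genes called and 582 of all genes, against 990 without it.

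Signs turned for values near 0. C5ar1 in transgenic mdx against WT was -0.047 with the mean of probe sets, and C1qa in AAV against PBS was -0.044 after quantile normalization and -0.000535 for log2 of the value + 16. Leaving out 1 array gave C1qb from -0.14 to 1.23 in transgenic against WT, -0.48 to 0.13 in transgenic mdx against mdx and -0.47 to 0.15 in the last comparison, and C5ar1 from -0.12 to 0.46 in transgenic mdx against WT. In transgenic mdx against transgenic it gave C1qa -0.029 to 0.42, C1qb -0.010 to 1.36, C3ar1 -0.22 to 0.58 and Serping1 -0.013 to 0.17. In AAV against PBS it gave C1qa -0.51 to 0.52, C1qb -0.11 to 0.074, C1qc -0.51 to 0.40, C3ar1 -0.27 to 1.03 and C5ar1 -0.22 to 0.92. Over the other alternatives, C1qb in mdx against WT passed with the mean of probe sets (adjusted p = 0.016) and from its dimmest probe set (adjusted p = 0.0023), Serping1 in mdx against WT passed for log2 of the value + 16 (adjusted p = 0.043), C5ar1 in mdx against WT was lost with the mean of probe sets (adjusted p = 0.061), and C5ar1 in transgenic mdx against mdx passed after quantile normalization, the filter and the fit within the set (adjusted p = 0.049, 0.047 and 0.040). The cause was not tested. The fit within the array set could not be made for the last comparison, which uses both sets.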

Other observations

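Of the other 5 measured genes, 4 had low intensity in the C2C12 myoblast line with and without Galgt2. C1qa lay between 16.3 and 21.4, C1qb between 8.06 and 11.6, C1qc between 13.4 and 17.4 and C5ar1 between 22.6 and 26.6 over the 4 arrays, all below the array medians. C3ar1 had 59.2 and 80.7 on the arrays labelled transfected myoblasts and myotubes, and 47.8 and 93.0 on those labelled untransfected myoblasts and myotubes. As Dmd goes against the labels of the untransfected pair, and exchanging that pair turns both C3ar1 differences, no direction is drawn.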
